A study of Mus musculus with 6 samples.

Results

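Glycolysis breaks glucose down to pyruvate, and lactate dehydrogenase can turn that pyruvate into lactate for export from the cell. When oxygen is scarce, the subunits Hif1a and Epas1 of the hypoxia-inducible factor (HIF) are no longer marked for degradation by the prolyl hydroxylases Egln1 and Egln3, and HIF raises transcription of many glycolytic genes and of genes such as Bnip3, Ankrd37 and Vegfa. Mouse embryonic stem cells (mESCs) are known for a high rate of glycolysis, with a part for mitochondrial oxidation that depends on the state of pluripotency. The 40 genes described here were chosen by name: 17 from glucose transport to pyruvate kinase, the regulators Pfkfb3 and Pfkfb4, 7 that set the fate of pyruvate and lactate, 4 of HIF and its hydroxylases and 10 hypoxia-response genes. All 40 were found among the 53458 genes with a summed value and passed the filter on low counts that left 18190 genes to test.

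The libraries came from TKO mESCs, a line derived from J1 mESCs in which Dnmt1, Dnmt3a and Dnmt3b are inactivated (Dnmt1-/-, Dnmt3a-/-, Dnmt3b-/-), so that both groups lack these DNA methyltransferases and neither speaks for wild-type cells. For TKO-serum (3 replicates) the medium was high-glucose DMEM with 15% FCS, 1 mM sodium pyruvate and LIF at 500 U/ml. For TKO-2i (3 replicates) it was serum-free N2B27 with LIF at 1000 U/ml, 1 µM of the MEK inhibitor PD0325901 and 3 µM of the GSK3 inhibitor CHIR99021. The inhibitors, the serum, the basal medium and the LIF dose changed together, and their parts in any difference below cannot be told apart. No sugar or pyruvate concentration is given here for TKO-2i, so whether either differed between the media is not shown. Poly(A)-selected, strand-specific libraries were made from 500 ng of RNA, and the labels call the replicates biological. The 3 TKO-2i libraries held 46228700, 44180642 and 43896549 estimated reads, by replicate number, and the 3 TKO-serum libraries held 38274042, 51932739 and 44827609. The first principal component of log2 CPM (counts scaled to library size) held 85% of the variance and separated the media. Transcripts of the inactivated genes were still counted in every library, with Dnmt1 at 31.0 ± 3.12 TPM in TKO-2i and 27.4 ± 1.48 TPM in TKO-serum, Dnmt3a at 4.68 ± 0.459 and 22.3 ± 0.942 TPM, and Dnmt3b at 8.24 ± 1.43 and 20.1 ± 1.16 TPM (SD, n = 3 each). Values summed per gene do not show whether the targeted exons were among them.

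Levels are given as TPM (a share of all transcripts in a library, scaled for transcript length), which can be set side by side between genes. Differences are log2 fold changes of TKO-2i over TKO-serum from edgeR's quasi-likelihood test on estimated counts, and a gene passed the test with a Benjamini-Hochberg adjusted p-value under 0.05 over all genes tested. The members did not move together. Of the 40 genes, 20 fell and 16 rose in TKO-2i, while Aldoa, Tpi1, Gapdh and Ldhb did not pass. The medium moved most of the transcriptome, and the background is therefore high. Of the 18190 genes tested, 62.5% passed, made up of 31.9% higher and 30.6% lower in TKO-2i, all as shares of the genes tested. At a fold change of at least 2, 8 members were lower (Slc2a1, Pfkl, Slc16a3, Epas1, Egln3, Bnip3, Ankrd37 and Adm) and 2 were higher (Hk1 and Car9), against 15.6% and 7.72% of all genes tested. By limma on log2(TPM + 0.1), 10 members were higher, and by limma on log2(TPM + 1) 575 genes in all were at least 2-fold higher and 1173 lower, in place of 1404 and 2846. Of the members, 1 in place of 2 was at least 2-fold higher by both limma fits and on counts scaled from TPM by length, and with a stricter filter of 10 counts in every library 1733 genes in all were at least 2-fold lower. TPM did not overlap between the groups for 34 members, against 62.5% of the genes tested. The median log2 fold change was -0.19 over the 40 members and 0.01 over all genes tested, and the median absolute change was 0.64 against 0.44.

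**Figure D1:**
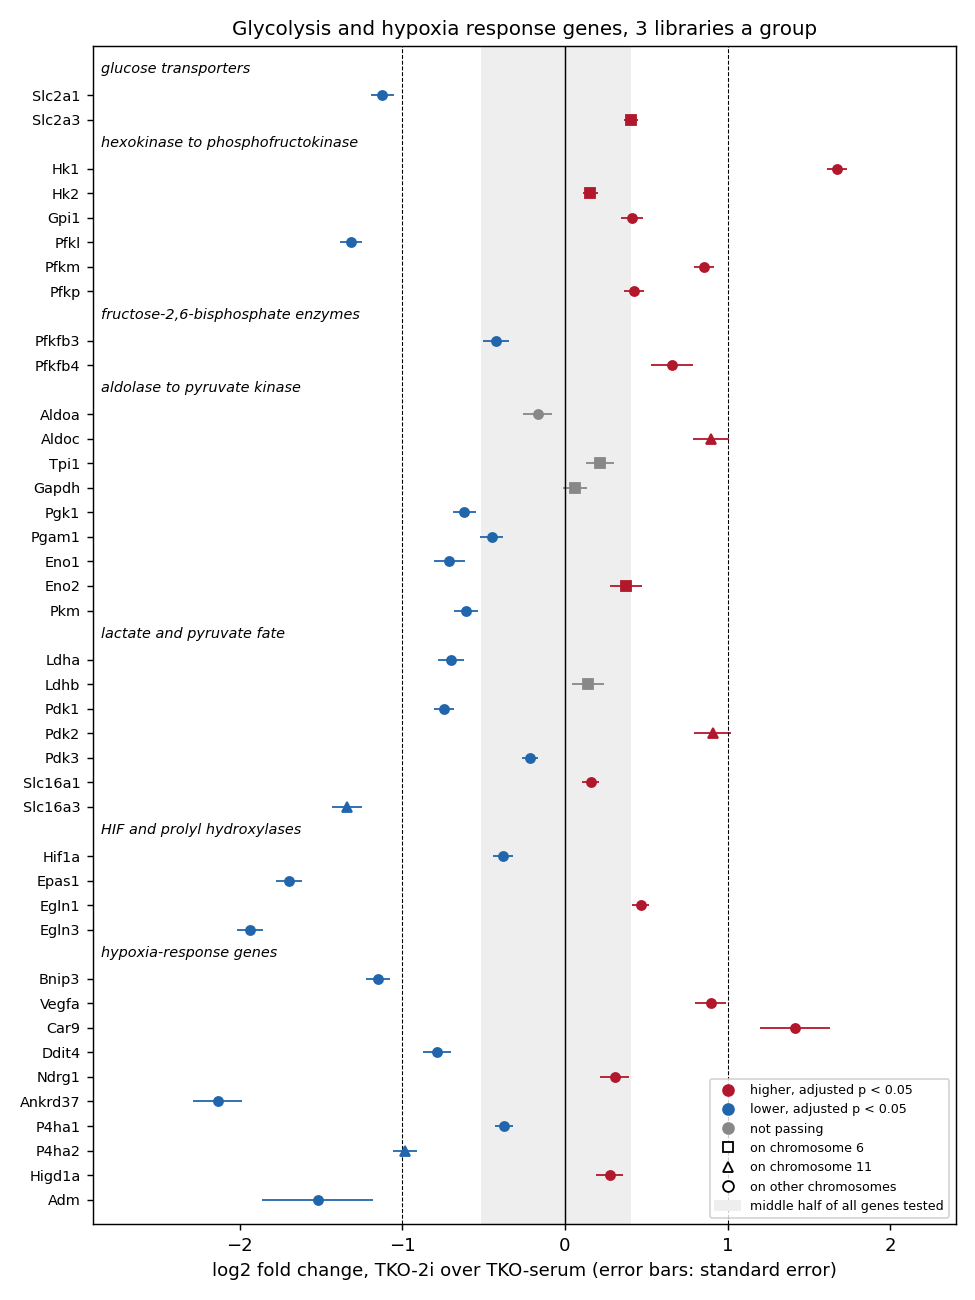
Log2 fold change of TKO-2i over TKO-serum (horizontal axis, no unit) for the 40 genes, grouped by role; points are estimates from 3 libraries a group, bars are standard errors, squares and triangles mark genes on chromosomes 6 and 11, and the grey band runs from -0.51 to 0.40, the quartiles of all genes tested. Ankrd37 (-2.14) and Egln3 (-1.93) lie farthest to the left and Hk1 (1.67) farthest to the right.

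At the entry of glucose, the 2 facilitative transporters went in opposite directions. Slc2a1, the widely used GLUT1 carrier (ENSMUSG00000028645; GRCm38 chromosome 4, 119108711 to 119137983), had 117, 112 and 109 TPM in TKO-2i replicates 1 to 3 and 257, 264 and 273 TPM in TKO-serum replicates 1 to 3. It fell by 1.12 on the log2 scale (standard error 0.07, edgeR adjusted p = 3.1e-06), and the lowest serum library stood far above the highest 2i library. Slc2a3, the high-affinity carrier GLUT3 (ENSMUSG00000003153; chromosome 6, 122727809 to 122801640), had 520, 577 and 497 TPM in TKO-2i against 417, 443 and 443 TPM in TKO-serum. Its log2 fold change was 0.41 (standard error 0.04, edgeR adjusted p = 4.7e-05). The median over all genes tested on chromosome 6 was also 0.41. Slc2a3 was the more abundant transporter in every library. The summed TPM of both genes was 644 ± 42.3 (SD, n = 3) in TKO-2i and 699 ± 21.8 (SD, n = 3) in TKO-serum, and the groups overlapped. This sum includes Slc2a1-204, annotated as subject to nonsense-mediated decay, with means of 45.6 TPM in TKO-2i and 107 TPM in TKO-serum. The main coding transcript Slc2a1-201 had 65.6 and 153 TPM.

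Hexokinase traps glucose in the cell as glucose 6-phosphate, and Hk1 showed the largest rise among the 40 genes. Hk1 (ENSMUSG00000037012; chromosome 10, 62268855 to 62379908) had 46.0, 48.4 and 44.5 TPM in TKO-2i and 15.4, 16.2 and 15.4 TPM in TKO-serum, a 3.18-fold difference (log2 fold change 1.67, standard error 0.06, edgeR adjusted p = 1.6e-07). Both main protein-coding transcripts had higher means in TKO-2i, Hk1-201 with 12.8 against 4.49 TPM and Hk1-202 with 28.9 against 9.30 TPM. Hk2, the hexokinase that HIF is known to induce, had 64.9, 75.4 and 65.6 TPM in TKO-2i and 62.0, 68.8 and 66.7 TPM in TKO-serum, which overlap. On TMM-scaled CPM, the scale of the test, the groups did not overlap (328, 336 and 333 against 296, 298 and 300.3) and Hk2 passed with a log2 fold change of 0.16 (standard error 0.04, edgeR adjusted p = 0.014). That call was lost under 7 of 16 alternatives: both limma fits (0.06), a filter of at least 10 counts in every library (0.12), no filter (0.14), and those without TKO-2i replicate 3 (0.15), TKO-serum replicate 1 (0.15) or TKO-serum replicate 3 (0.16). Gpi1, which interconverts glucose 6-phosphate and fructose 6-phosphate, was 1.33-fold higher, with 394 to 411 TPM in TKO-2i and 300.5 to 343 TPM in TKO-serum.

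Phosphofructokinase, a main control point of the route, is built from 3 kinds of subunit, and they diverged. The liver-type subunit Pfkl (ENSMUSG00000020277; chromosome 10, 77986947 to 78010083) fell from 148, 155 and 153 TPM in TKO-serum to 54.1, 57.0 and 51.1 TPM in TKO-2i (log2 fold change -1.31, standard error 0.07, edgeR adjusted p = 8.2e-07). The muscle-type subunit Pfkm rose from 9.01, 10.03 and 10.2 TPM to 15.9, 17.03 and 16.2 TPM (log2 fold change 0.85, standard error 0.06, edgeR adjusted p = 5.6e-06). The groups were apart for both genes. The platelet-type subunit Pfkp, the most abundant in TKO-2i, had 160, 197 and 158 TPM there and 127, 145 and 146 TPM in TKO-serum (log2 fold change 0.42, standard error 0.06, edgeR adjusted p = 4.2e-04). When counts were summed over protein-coding transcripts only, an alternative chosen after seeing the data, the value for Pfkp was -0.01 and did not pass. The main coding transcripts Pfkp-201 (57.8 against 64.4 TPM) and Pfkp-207 (42.4 against 42.0 TPM) overlapped between the groups. The coding transcript Pfkp-205 did not, with 9.89 ± 2.78 TPM (SD, n = 3) in TKO-2i and 3.27 ± 1.70 TPM (SD, n = 3) in TKO-serum, and Pfkp-212, annotated as a retained intron, had 27.4 ± 6.55 TPM (SD, n = 3) in TKO-2i and 12.7 ± 1.71 TPM (SD, n = 3) in TKO-serum. Of the Pfkfb enzymes, which make and remove an activator of phosphofructokinase, Pfkfb3 fell (log2 fold change -0.42, standard error 0.08) and Pfkfb4 rose (0.66, standard error 0.13). Both were low, at 6.71 and 3.11 TPM in TKO-2i. The value for Pfkfb4 was 1.00 on counts scaled from TPM by length. Over protein-coding transcripts only it was -0.61 and did not pass, and its most abundant transcript in TKO-2i, Pfkfb4-205 with 1.21 TPM, is annotated as a processed transcript.

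Between aldolase and pyruvate kinase, the steps that follow phosphofructokinase and yield ATP, Pgk1, Pgam1, Eno1 and Pkm fell, while Aldoa, Tpi1 and Gapdh did not pass by edgeR. Aldoa, the main aldolase, had 985, 969 and 953 TPM in TKO-2i and 1168, 1195 and 1270 TPM in TKO-serum. Its TPM did not overlap, but its CPM did, and its log2 fold change of -0.17 (standard error 0.09, edgeR adjusted p = 0.13) did not pass. It passed under 5 of 16 alternatives, with -0.32 by both limma fits on TPM and -0.25 without TKO-2i replicate 1. The others were counts scaled from TPM by length (-0.22) and a replicate block (-0.17). Without TKO-2i replicate 2 the value for Aldoa was -0.07. Tpi1, triose phosphate isomerase, had 348 to 364 TPM in TKO-2i and 325 to 339 TPM in TKO-serum (log2 fold change 0.22, standard error 0.08, edgeR adjusted p = 0.053), and passed under 5 of 16 alternatives: without TKO-2i replicate 2 (0.31), with TMM from genes outside chromosomes 6 and 11 (0.24), with a replicate block (0.21), on counts scaled from TPM by length (0.20) and with no filter (0.20). It was 0.11 by both limma fits and 0.14 without TKO-2i replicate 1. Gapdh, the glyceraldehyde 3-phosphate dehydrogenase often taken as a reference gene, was the most abundant of the 40, with 4085, 4081 and 4112 TPM in TKO-2i and 4128, 4269 and 4282 TPM in TKO-serum. Its log2 fold change was 0.06 on counts (standard error 0.07, edgeR adjusted p = 0.51), 0.15 without TKO-2i replicate 2, which passed, 0.00 without TKO-2i replicate 1, 0.02 without TKO-2i replicate 3 or TKO-serum replicate 2, and -0.05 by both limma fits, so that its sign depended on the scale.

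The later enzymes were clearer. Pgk1, phosphoglycerate kinase, had 435, 423 and 424 TPM in TKO-2i and 692, 680 and 706 TPM in TKO-serum (log2 fold change -0.62, standard error 0.07, edgeR adjusted p = 8.1e-05). Pgam1, phosphoglycerate mutase, had 582 to 612 TPM against 862 to 889 TPM (-0.45, standard error 0.07). Eno1, the main enolase, had 530, 494 and 527 TPM against 878, 927 and 956 TPM (-0.71, standard error 0.09, edgeR adjusted p = 2.3e-04). Each of these genes, and Pkm, was lower in all 3 TKO-2i libraries than in any TKO-serum library. The minor isozymes went the other way: Aldoc rose from 14.2 ± 0.705 TPM to 24.3 ± 1.37 TPM (SD, n = 3 each; log2 fold change 0.90, standard error 0.11), and Eno2 had 0.37 (standard error 0.10, edgeR adjusted p = 0.0099) at about 4 TPM in both groups, with overlap in TPM and no call by limma on log2(TPM + 1) (0.10) or log2(TPM + 0.1) (0.12) or on counts scaled from TPM by length (0.22). Genes such as Gapdh, Pgk1, Pgam1, Eno1, Tpi1, Aldoa, Pkm and Ldha have processed copies elsewhere in the genome, and reads shared with these were divided by estimation, which adds an uncertainty that the replicates do not show. A record of the same symbol, Aldoa, that lies beside it (ENSMUSG00000114515) had at most 3.71 TPM in a library and was not used.

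**Figure D2:**
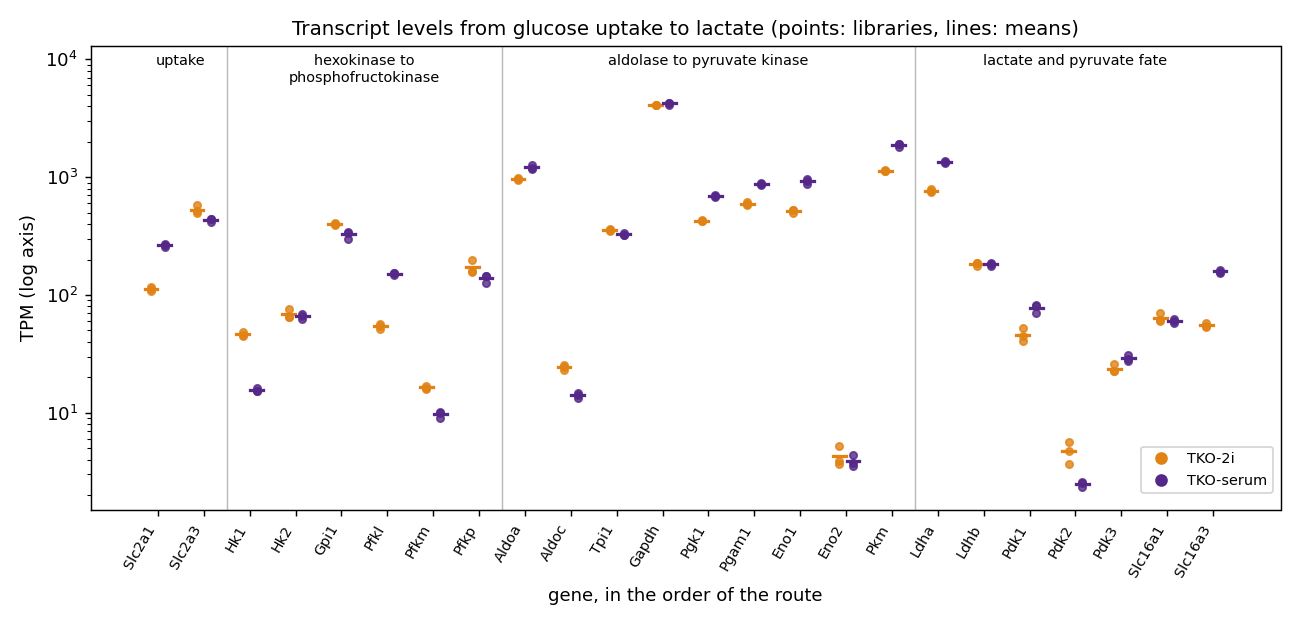
TPM on a log axis for the 24 genes from glucose uptake to lactate export, in the order of the route, with 1 point for each library (3 TKO-2i, 3 TKO-serum) and a line at each group's mean. Gapdh stands highest, with group means of 4092 and 4227 TPM, and Slc2a1, Pfkl, Pgk1, Pgam1, Eno1, Pkm, Ldha and Slc16a3 lie lower in TKO-2i, while Hk1 lies higher.

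Pyruvate kinase makes pyruvate in the last step. Pkm (ENSMUSG00000032294; chromosome 9, 59656368 to 59679375) had 1159, 1123 and 1124 TPM in TKO-2i and 1811, 1915 and 1911 TPM in TKO-serum (log2 fold change -0.61, standard error 0.08, edgeR adjusted p = 1.5e-04). Splicing joins 1 of 2 mutually exclusive exons into the message, giving the M1 form, known from muscle and brain, or the M2 form, known from proliferating cells. The M1 exon lies at chr9:59675029-59675195 and is held by transcript Pkm-202, and the M2 exon lies at chr9:59675568-59675734 and is held by Pkm-201, both coding exons on the plus strand of GRCm38. Pkm-201 had 1110, 1057 and 1067 TPM in TKO-2i and 1706, 1787 and 1795 TPM in TKO-serum. Pkm-202 had 15.8, 20.8 and 17.2 TPM in TKO-2i and 46.8, 54.7 and 47.3 TPM in TKO-serum. The M2 transcript thus made up 94.9% ± 0.848 (SD, n = 3) of Pkm in TKO-2i and 93.8% ± 0.463 (SD, n = 3) in TKO-serum, which overlapped. The M1 transcript made up 1.58% ± 0.248 and 2.64% ± 0.197 (SD, n = 3 each), without overlap (exact permutation test, two-sided p = 0.1, the smallest that 3 against 3 samples allow). The exons have the same length of 167 bases and differ at 64 positions. They are shown because reads from these bases tell both forms apart; in the sequences from the GENCODE transcripts, 5′ to 3′, capitals mark the bases that differ.
M1: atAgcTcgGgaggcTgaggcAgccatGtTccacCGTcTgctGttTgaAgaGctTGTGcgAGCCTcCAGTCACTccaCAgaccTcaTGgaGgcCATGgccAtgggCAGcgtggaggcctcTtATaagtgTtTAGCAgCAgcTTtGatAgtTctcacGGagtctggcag
M2: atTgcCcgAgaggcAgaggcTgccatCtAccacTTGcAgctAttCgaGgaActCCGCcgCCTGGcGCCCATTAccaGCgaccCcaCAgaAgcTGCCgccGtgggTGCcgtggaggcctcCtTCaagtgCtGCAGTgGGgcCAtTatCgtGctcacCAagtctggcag

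Where a step has several genes, its composition differed between the media. Hk2 made up 58.5%, 60.9% and 59.6% of the summed TPM of Hk1 and Hk2 in TKO-2i and 80.1%, 81.0% and 81.2% in TKO-serum. Hexokinase TPM in sum was 115 ± 7.72 in TKO-2i and 81.5 ± 3.84 in TKO-serum (SD, n = 3 each). Mean sums were lower in TKO-2i, without overlap, for phosphofructokinase (242 against 300.3 TPM), aldolase (993.4 against 1225), enolase (521.2 against 924) and monocarboxylate carriers (119 against 218.6). Pfkl made up 22.4% ± 1.23 of the phosphofructokinase TPM in TKO-2i and 50.5% ± 1.41 in TKO-serum, and Pfkp 70.8% ± 1.63 and 46.3% ± 1.35 (SD, n = 3 each). The leading subunit was therefore Pfkp in every TKO-2i library and Pfkl in every TKO-serum library. Pfkm made up 6.81% ± 0.469 and 3.24% ± 0.0561 (SD, n = 3 each), a difference of 3.57 percentage points that was 5.54 on protein-coding transcripts only. Slc2a3 made up 82.4% ± 1.13 of both glucose transporters in TKO-2i and 62.2% ± 0.433 in TKO-serum, Ldhb 19.3% ± 0.200 and 12.0% ± 0.453 of both lactate dehydrogenase subunits, and Slc16a3 46.5% ± 2.65 and 72.4% ± 0.778 of both monocarboxylate carriers (SD, n = 3 each). Aldoc and Eno2 stayed minor, at 2.45% and 0.822% of their enzymes in TKO-2i and 1.16% and 0.421% in TKO-serum, and the difference for Eno2, 0.401 percentage points, was 0.22 on protein-coding transcripts only. None of these 9 shares overlapped between the groups, and each had an exact two-sided permutation p of 0.1, the smallest that 3 against 3 samples allow, so that none could pass a threshold of 0.05.

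**Figure D3:**
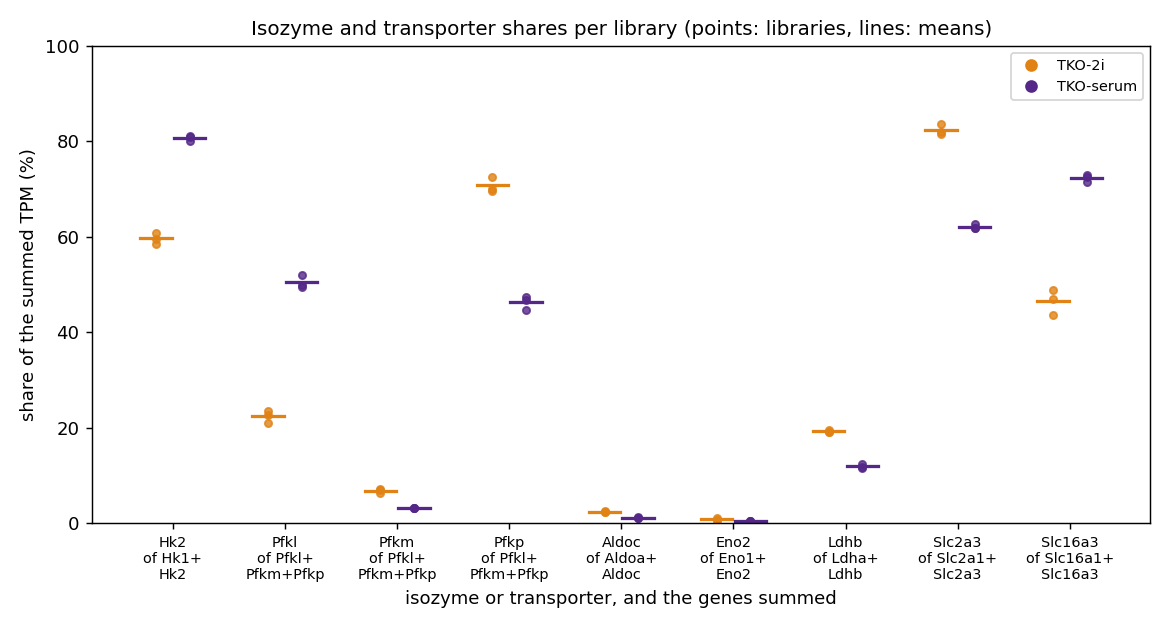
Share of the named gene in the summed TPM of its enzyme or transporter genes (percent, vertical axis) in each of 3 TKO-2i and 3 TKO-serum libraries, with lines at the group means. Pfkl lies near 22.4% in TKO-2i and 50.5% in TKO-serum, and no share overlaps between the groups.

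Pyruvate is reduced to lactate by lactate dehydrogenase or enters mitochondria through pyruvate dehydrogenase, which the Pdk kinases inhibit. Ldha, the subunit that favours lactate (ENSMUSG00000063229; chromosome 7, 46841475 to 46855627), had 796, 744 and 770 TPM in TKO-2i and 1315, 1340 and 1365 TPM in TKO-serum (log2 fold change -0.70, standard error 0.08, edgeR adjusted p = 8.5e-05). The other subunit, Ldhb, had 177 to 188 TPM in TKO-2i and 176 to 188 TPM in TKO-serum. Its log2 fold change of 0.14 (standard error 0.10, edgeR adjusted p = 0.24) did not pass. Ldhb did pass without TKO-2i replicate 2 (0.24) and with a replicate block (0.14). Its value was 0.01 by both limma fits and 0.07 without TKO-2i replicate 1 or TKO-serum replicate 2. The sum of both was 954 ± 31.7 TPM in TKO-2i and 1522 ± 22.8 TPM in TKO-serum (SD, n = 3 each). Of the kinases, Pdk1, a HIF target, had 40.4, 52.1 and 44.7 TPM in TKO-2i and 70.4, 80.8 and 82.0 TPM in TKO-serum (log2 fold change -0.74, standard error 0.06, edgeR adjusted p = 1.2e-05). Pdk3 fell slightly (-0.21, standard error 0.05), and Pdk2 rose from 2.50 ± 0.142 to 4.69 ± 0.998 TPM (SD, n = 3 each; 0.91, standard error 0.11). In sum the 3 kinases had 74.1 ± 8.29 TPM in TKO-2i and 109 ± 7.65 TPM in TKO-serum (SD, n = 3 each). Most of the Pdk1 TPM in this sum came from transcripts annotated as processed transcripts. The coding transcript Pdk1-201 had means of 10.2 TPM in TKO-2i and 18.5 TPM in TKO-serum, below the 23.7 and 28.9 TPM of the coding transcript Pdk3-201.

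Lactate leaves cells through monocarboxylate carriers, and of both members of this kind the hypoxia-linked carrier fell. Slc16a3, the carrier MCT4 of highly glycolytic cells (ENSMUSG00000025161; chromosome 11, 120948480 to 120960868), had 58.4, 54.2 and 53.3 TPM in TKO-2i and 155, 158 and 162 TPM in TKO-serum (log2 fold change -1.34, standard error 0.09, edgeR adjusted p = 4.2e-06). Slc16a1, the general carrier MCT1, had 60.2 to 70.0 TPM in TKO-2i and 58.3 to 63.0 TPM in TKO-serum, with overlap. Its log2 fold change on counts was 0.16 (standard error 0.05, edgeR adjusted p = 0.032), a call lost under 9 of 16 alternatives: both limma fits (0.07), at least 10 counts in every library (0.12), protein-coding transcripts only (0.12), no filter (0.14), and those without TKO-2i replicate 1 (0.16), TKO-2i replicate 3 (0.17), TKO-serum replicate 1 (0.15) or TKO-serum replicate 3 (0.15). Over the 7 genes of lactate and pyruvate fate, 4 fell and 2 rose, against 30.6% and 31.9% of all genes tested. The share that rose is close to that of all genes, and the median log2 fold change was -0.21.

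Of the HIF system, 3 of 4 genes fell, against 30.6% of all genes tested, with a median log2 fold change of -1.04. Hif1a, the broadly expressed HIF subunit, had 47.0, 55.8 and 45.4 TPM in TKO-2i and 64.2, 73.6 and 66.6 TPM in TKO-serum (log2 fold change -0.38, standard error 0.06, edgeR adjusted p = 8.5e-04). HIF subunits are controlled mainly through protein stability, which these libraries do not measure. Epas1, the related subunit HIF2 alpha (ENSMUSG00000024140; chromosome 17, 86753700 to 86833410), had 2.86, 4.13 and 3.02 TPM in TKO-2i and 10.9, 12.5 and 11.2 TPM in TKO-serum (-1.70, standard error 0.08, edgeR adjusted p = 5.2e-07). The hydroxylase Egln3, itself a HIF target (ENSMUSG00000035105; chromosome 12, 54178981 to 54203860), had 3.68, 4.01 and 3.21 TPM in TKO-2i and 14.2, 14.2 and 16.0 TPM in TKO-serum, a 3.82-fold fall (-1.93, standard error 0.08, edgeR adjusted p = 3.0e-07). Egln1, the main oxygen-dependent hydroxylase of HIF, moved the other way, with 16.4, 18.0 and 15.0 TPM in TKO-2i and 12.7, 12.9 and 13.0 TPM in TKO-serum (0.46, standard error 0.05, edgeR adjusted p = 1.1e-04). In each TKO-serum library Egln3 stood slightly above Egln1, and in each TKO-2i library Egln1 was the more abundant.

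Among the 10 hypoxia-response genes, 6 fell and 4 rose, against 30.6% and 31.9% of all genes tested. The median log2 fold change of the 10 was -0.58. The largest fall of all 40 genes was that of Ankrd37, an ankyrin repeat gene known as a direct HIF target (ENSMUSG00000050914; chromosome 8, 45996902 to 46005707), with 5.62, 3.80 and 3.13 TPM in TKO-2i and 21.5, 23.3 and 20.1 TPM in TKO-serum (log2 fold change -2.14, standard error 0.15, edgeR adjusted p = 5.0e-06). Bnip3, which acts in the removal of mitochondria (ENSMUSG00000078566; chromosome 7, 138890836 to 138909519), had 45.8, 40.5 and 39.1 TPM in TKO-2i and 99.2, 99.9 and 101 TPM in TKO-serum (-1.15, standard error 0.08, edgeR adjusted p = 3.7e-06). Every serum library was above every 2i library for both genes. Ddit4, an inhibitor of mTORC1 signalling, fell by 0.79 on the log2 scale (standard error 0.09), and the collagen prolyl hydroxylase subunits P4ha1 and P4ha2 fell by 0.38 (standard error 0.05) and 0.98 (standard error 0.07). Adm, the peptide hormone adrenomedullin, fell by 1.52 (standard error 0.34), with 0.284 to 0.496 TPM in TKO-2i and 0.782 to 1.41 TPM in TKO-serum, and was -0.66 by limma on log2(TPM + 1).

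The 4 that rose include the angiogenic factor Vegfa, a classical HIF target. Vegfa (ENSMUSG00000023951; chromosome 17, 46016993 to 46032369) had 38.0, 47.9 and 34.4 TPM in TKO-2i and 22.2, 20.8 and 26.6 TPM in TKO-serum (log2 fold change 0.90, standard error 0.10, edgeR adjusted p = 6.1e-05), and its groups did not overlap. The carbonic anhydrase Car9, another classical HIF target, rose from low levels. On CPM it had 1.85, 1.71 and 2.06 in TKO-2i and 0.518, 0.658 and 0.914 in TKO-serum (1.41, standard error 0.21, edgeR adjusted p = 4.9e-04), but its TPM overlapped (1.52 to 1.98 against 0.507 to 1.57), and by limma on log2(TPM + 0.1) it was 0.91 and did not pass, and on log2(TPM + 1) it was 0.52. Ndrg1 and Higd1a, a mitochondrial protein gene, rose least, with log2 fold changes of 0.31 and 0.28 (standard errors 0.09 and 0.08, edgeR adjusted p = 0.016 and 0.020). The call of Ndrg1 was lost under 5 of 16 alternatives: limma on log2(TPM + 0.1) (0.20) and log2(TPM + 1) (0.19), and those without TKO-2i replicate 1 (0.23), TKO-2i replicate 3 (0.28) or TKO-serum replicate 2 (0.24). That of Higd1a was lost under 7: both limma fits (0.16), counts scaled from TPM by length (0.26), and those without TKO-2i replicate 1 (0.19), TKO-2i replicate 3 (0.26), TKO-serum replicate 2 (0.24) or TKO-serum replicate 3 (0.26).

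Some members lie on chromosomes whose genes were shifted as a whole. The tested genes of chromosomes 6 and 11 had median log2 fold changes of 0.41 and 0.26, whereas no other chromosome of the 18 compared had a median below -0.15 or above 0.05. By limma on log2(TPM + 1) the medians of chromosomes 6 and 11 were 0.21 and 0.13. Slc2a3, Hk2, Tpi1, Gapdh, Eno2 and Ldhb lie on chromosome 6. All 6 had values above 0, with a median of 0.19, and none exceeded the median of the chromosome. Aldoc, Pdk2, Slc16a3 and P4ha2 lie on chromosome 11, where 2 rose and 2 fell. The 30 members on other chromosomes had a median of -0.40. Over the 17 genes from transport to pyruvate kinase, 8 rose and 6 fell, against 31.9% and 30.6% of all genes tested. Their median of 0.16 was 0.06 by limma on log2(TPM + 1) and 0.02 over protein-coding transcripts only. But of the 11 of them that lie outside chromosomes 6 and 11, 4 rose and 6 fell, with a median of -0.45. The part of these chromosome-wide shifts in the values of the members on both chromosomes, and in the shares that include them, was not tested. With TMM factors from genes outside both chromosomes, an alternative chosen after seeing the data, Tpi1 passed with 0.24 and the other 39 members had the same call and direction. Such factors scale all genes of a library alike, so these calls do not bear on the shifts of both chromosomes.

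The wider pathway was described by 119 further genes in 8 lists. Of these, 103 were tested, of which 32 rose, 46 fell and 25 did not pass, and the median log2 fold change was -0.05. The share that rose was 31.1%, near the 31.9% of all genes tested, and the share that fell was 44.7%, against 30.6%. Of 37 tested genes in the list of other hypoxia-response genes, 23 fell (62.2%, against 30.6% of all genes tested) and 9 rose (24.3%, against 31.9%), with a median of -0.38. The 9 became 5 without TKO-2i replicate 1, TKO-2i replicate 3, TKO-serum replicate 2 or TKO-serum replicate 3, with at least 10 counts in every library or over protein-coding transcripts only, and 4 by both limma fits. Among those with a mean of at least 1 TPM and no overlap in TPM, Tmem45a (-2.20), Loxl2 (-1.83), which crosslinks collagen, and Car12 (-1.52), a carbonic anhydrase, fell most, while Ak4 (1.97), a mitochondrial adenylate kinase, Wsb1 (1.35; chromosome 11) and the chemokine receptor Cxcr4 (0.73) rose most. Ak4 had 250 ± 34.0 TPM in TKO-2i and 80.3 ± 2.31 TPM in TKO-serum (SD, n = 3 each). The call of Cxcr4 was lost without TKO-2i replicate 1 (0.69), TKO-2i replicate 3 (0.58) or TKO-serum replicate 2 (0.54). By limma on log2(TPM + 1), Car12 was -0.80 and Cxcr4 0.35. Of the 13 other oxygen sensors and HIF partners, 3 rose (23.1%), 5 fell (38.5%) and 5 did not pass. These shares compare with the 31.9% and 30.6% of all genes tested that rose and fell. Vhl, the ubiquitin ligase subunit that recognises hydroxylated HIF, had 29.6 ± 1.65 TPM in TKO-2i and 14.7 ± 0.621 TPM in TKO-serum (SD, n = 3 each; log2 fold change 1.14, standard error 0.05), above the median of its chromosome 6. Its partner Elob fell by 1.40 (standard error 0.11), Cited2, a HIF-induced inhibitor of HIF activity, fell by 0.90, and Arnt2 fell by 1.15. Egln2 rose by 0.33 on the log2 scale and Rbx1 by 0.21, the latter no longer passing without TKO-2i replicate 1 (0.18) or TKO-2i replicate 3 (0.19), and 0.32 on counts scaled from TPM by length.

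Of the 11 genes of pyruvate entry to mitochondria, 4 rose, 2 fell and 5 did not pass, with a median of 0.14, and the share that rose is close to the 31.9% of all genes tested. Mpc1, a subunit of the mitochondrial pyruvate carrier, had 63.3 ± 2.58 TPM in TKO-2i and 31.0 ± 0.646 TPM in TKO-serum (SD, n = 3 each), a log2 fold change of 1.13 (standard error 0.07, edgeR adjusted p = 2.7e-06). Its partner Mpc2 rose by 0.56 on the log2 scale, and Pdp2, a phosphatase that reactivates pyruvate dehydrogenase, by 1.17. Pdp1, the other phosphatase, fell by 0.65, and the kinase Pdk4, at 0.942 TPM in TKO-2i, fell by 1.10 (-0.67 by limma on log2(TPM + 1)). Of the 10 genes of the pentose phosphate pathway 5 rose (50%, against 31.9% of all genes tested) and 2 fell (20%, against 30.6%). Their median was 0.24. H6pd (1.09), Rpia (0.64; chromosome 6) and Taldo1 (0.43) rose most, and Tktl2 (-0.53) and Rpe (-0.52) were the 2 that fell. Of 6 tested genes of gluconeogenesis, 3 rose (50%, against 31.9% of all genes tested) and 2 fell (33.3%, against 30.6%). Pck2, the mitochondrial phosphoenolpyruvate carboxykinase, rose from 13.4 ± 1.31 to 39.8 ± 3.45 TPM (SD, n = 3 each), a log2 fold change of 1.76 (standard error 0.08). G6pc3 (chromosome 11) rose by 0.97 and Slc37a4 by 0.76 (0.37 by limma on log2(TPM + 1)). Pcx, pyruvate carboxylase, fell by 1.39, and Fbp2 fell by 0.71.

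Other isozymes and regulators of glycolysis were divided, with 7 higher, 7 lower and 2 not passing among 16 tested. The shares higher and lower were both 43.8%, against 31.9% and 30.6% of all genes tested. The count of 7 higher was 4 without TKO-2i replicate 1, TKO-2i replicate 3, TKO-serum replicate 2 or TKO-serum replicate 3, and also 4 by both limma fits and on counts scaled from TPM by length. Tigar, a phosphatase known to lower glycolytic flux, had 68.4 ± 2.25 TPM in TKO-2i and 35.4 ± 2.29 TPM in TKO-serum (SD, n = 3 each; log2 fold change 1.13, standard error 0.06; chromosome 6). The phosphoglucomutases Pgm1 and Pgm2, which link glycolysis to glycogen and pentoses, had values of -1.46 and 0.99. Adpgk, an ADP-dependent glucokinase, rose by 0.61 on the log2 scale (0.29 over protein-coding transcripts only). Pklr (-1.60) and Eno3 (-0.98), isozymes of liver and muscle, fell, with -0.72 by limma on log2(TPM + 1) for Pklr and -0.64 on counts scaled from TPM by length for Eno3. Of 4 tested sugar transporters, 2 fell (50%, against 30.6% of all genes tested). They were Slc2a5 (-0.93) and Slc2a4 (-0.62), both with group means under 2 TPM. The call of Slc2a4 was lost over protein-coding transcripts only (-0.55), which left 1 of these falls, and its value by limma on log2(TPM + 1) was -0.35. Slc16a6 (0.51, chromosome 11) was the 1 that rose of 6 tested monocarboxylate carriers and their chaperones (16.7%, against 31.9% of all genes tested). Of these 6, 3 fell (50%, against 30.6%). The largest of these falls among genes with a mean of at least 1 TPM was that of Emb, a chaperone of monocarboxylate carriers, from 51.5 ± 1.90 to 9.21 ± 0.828 TPM (SD, n = 3 each; -2.41, standard error 0.06), and Slc16a10 fell by 0.66, a call lost on counts scaled from TPM by length (-0.32) and by limma on log2(TPM + 0.1) (-0.40) or log2(TPM + 1) (-0.30).

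The letters at the core of the hypoxia response element were looked for in the promoters, because members that are known HIF targets moved in both directions. A window of 300 bases, from 250 before to 50 after the start of transcription, was matched by symbol for 37 of the 40 genes in the RefSeq table for GRCm38.p6 (Epas1, Ndrg1 and Slc2a3 had no entry), and 11 of them have more than 1 window. ACGTG, on either strand, was in at least 1 window of 27 of the 37 genes (73.0%), against 21.8% of all 27025 genes of the table and 27.8% of the 12440 that were tested here. GCGTG, on either strand, was in 25 of 37 (67.6%), against 35.2% and 52.8%. The members were chosen by name and include known HIF targets, so higher shares among them follow in part from that choice and are not a finding about these libraries. CACGTG holds ACGTG on both strands, and a match is a run of letters, not a binding site. ACGTG was in 15 of 19 members that fell (78.9%) and 10 of 14 that rose (71.4%), and in 2 of 4 that did not pass; these shares were not tested against each other. Counted by window, it was in 57.7% of the 52 windows of the members and 19.6% of all 32851. The stretches below are from the members that changed at least 2-fold and have a single window in the table, with ACGTG before the start, written 5′ to 3′ on the strand of the gene with both motifs in capitals, and are shown because the same letters stand before genes that fell and before Car9, which rose. Hk1, which rose, has 2 windows, 1 of them with ACGTG, and is not shown. Pfkl and Adm, which fell at least 2-fold, have a single window without ACGTG and are not shown either. Starts are those of RefSeq, and some of these bases lie in first exons as GENCODE annotates them.
Car9 (higher in TKO-2i; chr4:43506996-43507024, plus strand): ctatttccgatgCACGTacagcccgtcca
Slc2a1 (lower in TKO-2i; chr4:119108697-119108725, plus strand): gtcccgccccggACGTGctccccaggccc
Bnip3 (lower in TKO-2i; chr7:138909597-138909626, minus strand): gcgCACGCgccgCACGTGccaCACGCtccc
Ankrd37 (lower in TKO-2i; chr8:45999851-46000100, minus strand): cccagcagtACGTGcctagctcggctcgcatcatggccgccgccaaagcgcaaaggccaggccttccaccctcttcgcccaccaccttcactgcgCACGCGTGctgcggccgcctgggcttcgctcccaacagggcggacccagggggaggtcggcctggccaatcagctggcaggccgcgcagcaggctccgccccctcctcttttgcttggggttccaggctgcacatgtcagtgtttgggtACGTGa
Slc16a3 (lower in TKO-2i; chr11:120949028-120949066, plus strand): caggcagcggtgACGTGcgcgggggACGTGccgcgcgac
Egln3 (lower in TKO-2i; chr12:54204087-54204115, minus strand): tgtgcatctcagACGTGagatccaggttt

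The cultures were checked against markers of mESCs and of cells that could accompany or arise from them. All 8 mESC markers had group means of at least 98.0 TPM, and the list summed to 5500, 5028 and 4986 TPM in TKO-2i replicates 1 to 3 and 6345, 6013 and 6118 TPM in TKO-serum replicates 1 to 3, with Dppa5a as its most abundant gene. Of these 8, 2 rose, 4 fell and 2 did not pass. For comparison with this list and those below, 31.9% of all genes tested rose and 30.6% fell. The published methods state that lines other than wild-type J1 were kept without feeders. Fibroblast feeder markers were low in all libraries, with sums between 4.28 and 7.34 TPM, most of it from Thy1, and 5 of 8 under 1 TPM everywhere. Their sums were lower in TKO-2i (4.28 to 5.01 TPM) than in TKO-serum (6.93 to 7.34 TPM), and of 4 tested 3 fell and none rose. The 8 endoderm markers summed to 4.62, 5.64 and 4.54 TPM in TKO-2i and 13.7 to 18.3 TPM in TKO-serum, 5 of 6 tested fell, and Dab2, the most abundant in TKO-serum (6.72 TPM) but not in TKO-2i, where Gata4 led (2.41 TPM), had a log2 fold change of -4.35 (-2.57 by limma on log2(TPM + 1)). The neuroectoderm markers summed to 89.5 to 93.5 TPM in TKO-2i and 139 to 144 TPM in TKO-serum (4 of 6 tested fell, 2 rose), most of it from Tubb3. Markers of primitive streak and mesoderm summed to 22.8 to 27.3 TPM in TKO-2i and 5.81 to 6.10 TPM in TKO-serum (3 of 7 tested rose, 2 fell). T, with a log2 fold change of 5.58 (3.31 by limma on log2(TPM + 1)), was the most abundant of them in TKO-2i (11.8 TPM), and Hand1 in TKO-serum (1.48 TPM). Trophoblast markers summed to 75.9 to 81.3 TPM in TKO-2i and 46.1 to 48.4 TPM in TKO-serum (3 of 7 tested rose, 3 fell). Krt8, with a log2 fold change of 1.78, led in TKO-2i (43.3 TPM) and Tfap2c in TKO-serum (23.1 TPM). No marker was at 0 in all libraries. These lists moved with the medium, as the glycolytic and hypoxia-response genes did, and their part in those results was not tested; in bulk libraries, fewer cells with a transcript and less of it per cell cannot be told apart.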

How the data were processed

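The authors deposited 1 table per library of transcript values, with an estimated count (NumReads) and a TPM per transcript. These columns are those salmon writes, but the quantifier is not given in the sources used here, and the submitters' notes name mm10. The published methods for RNA sequencing instead describe Tophat alignment (V2) to mm10 with RPKM per gene, which differs from the deposited tables. Both values were summed per gene with GENCODE M21, which matched 136176 of 136288 transcripts. Summed estimated counts were rounded, filtered (filterByExpr), scaled by TMM and fitted with edgeR's quasi-likelihood test on the medium, with Benjamini-Hochberg adjustment over all genes tested; the standard error is the absolute log2 fold change divided by the square root of F. Levels are summed TPM, and shares were compared by exact permutation of the samples. The members and lists were chosen with earlier results of these data known. All 40 members are named, and of each pathway list up to 3 rises and 3 falls, the largest among genes past the threshold with a mean of at least 1 TPM and no overlap in TPM. Alternatives were DESeq2, its size factors in edgeR, a filter of at least 10 counts in every library, no filter, length-scaled TPM counts, limma on log2(TPM + 1) and log2(TPM + 0.1), a replicate block, leaving out each library, for shares estimated counts or protein-coding transcripts only, and, chosen after seeing the data, protein-coding transcripts only for the fold changes and TMM from genes outside chromosomes 6 and 11. Tools were R 4.3.3, edgeR 4.0.16, limma 3.58.1, DESeq2 1.42.0, Python 3.11.15, numpy 2.4.6, pandas 2.3.3 and matplotlib 3.10.9.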

Additional observations from a re-analysis of the deposited data

How the results depend on the processing

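Of the 40 members, 28 (8 higher, 20 lower in TKO-2i) kept their direction and their side of the threshold under all 16 alternatives, 2 of them chosen after seeing the data, and 12 did not. For the values that moved the cause was not tested. By limma on log2(TPM + 1), 575 genes were at least 2-fold higher and 1173 lower (1404 and 2846 by edgeR), and 1733 were lower with at least 10 counts in every library. By limma on log2(TPM + 0.1), 10 members were higher in place of 16, and by both limma fits and length-scaled TPM counts 1 was at least 2-fold higher in place of 2. The median log2 fold change of the glycolytic route was 0.06 by both limma fits and 0.02 over protein-coding transcripts only, that of lactate and pyruvate fate -0.29 and -0.28 by limma with 0.1 and 1 added, and that of the hypoxia-response genes -0.69 with 0.1 added. The median over all genes tested was -0.09 and -0.06 in these fits. Chromosome 6 had a median of 0.21 and chromosome 11 of 0.13 by limma on log2(TPM + 1), 0.51 and 0.30 over genes with a mean of at least 1 TPM, and 0.38 to 0.40 and 0.24 to 0.29 when each library was left out. Over protein-coding transcripts only, the log2 fold changes of Pfkp and Pfkfb4 turned to -0.01 and -0.61, and that of Gapdh to -0.05 by both limma fits. On estimated counts in place of TPM, the differences in share were -18.9 percentage points for Hk2, 1.46 for Aldoc, 6.79 for Ldhb and 18.3 for Slc2a3. On protein-coding transcripts only they were -25.3 for Pfkl, 5.54 for Pfkm, 19.8 for Pfkp, 1.13 for Aldoc and 15.6 for Slc2a3. With a block for replicate number, 6448 genes were higher and 6105 lower, and Aldoa (-0.17), Tpi1 (0.21) and Ldhb (0.14) passed. Deviations of log2 CPM from the group mean were correlated across genes, which are not independent. Pearson r was 0.242, 0.329 and 0.014 for replicates 1, 2 and 3 of both groups. TKO-2i replicate 3 had 0.123 with TKO-serum replicate 1, and the other pairs of unlike number had -0.326, -0.237, -0.133, -0.012 and 0.001. Whether libraries of the same number share a batch was not tested, and the main fit took the samples as unpaired. Depth limits the least abundant genes: 3 counts equal 0.0578 to 0.0784 CPM, and Adm, Car9 and Ankrd37 lie closest to this among the members. These libraries hold no protein levels.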
